A study of Mus musculus with 4 samples.

Results

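Inhibitory neuron nuclei were examined within a set of spinal cord nuclei that had been sorted for an excitatory lineage. Members were chosen by their own measured values. A nucleus was kept when it had at least 500 genes with a count, a stored entry for at least 3 of 6 pan-neuronal genes (Rbfox3, Snap25, Syt1, Snhg11, Grin1, Grin2b), and a stored entry for at least 2 of 6 inhibitory genes (Gad1, Gad2, Pax2, Pax8, Slc6a5, Slc32a1). A stored entry is any gene and nucleus listed in the deposited matrix, including those listed with a count of 0. The rule found 285 nuclei among 4001 deposited, and 255 of the 285 came from a single library.

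All mice were female and carried Chx10Cre/+; ROSA26CAG-LSL-Sun1-sfGFP-Myc/+. Cre made from Chx10, a gene of V2a interneurons, switches on a green nuclear envelope protein in cells that make Cre and in their descendants. Green nuclei from the cervical cord were sorted and profiled by droplet sequencing of nuclear RNA. There were 2 libraries from uninjured mice, taken over segments C1 to C8, and 2 from mice 5 days after a hemisection at C2, taken over C3 to C8. The labels do not give the age, say whether animals were pooled, or say whether libraries came from separate animals, and injury goes with the shorter range of segments, so these cannot be told apart.

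Spinal inhibitory neurons release GABA, glycine or both. GABA is made by the glutamate decarboxylases Gad1 and Gad2, glycine is taken up at the terminal by the transporter Slc6a5, and the carrier Slc32a1 loads both into vesicles. Pax2 and Pax8 are paired-box transcription factors that mark most inhibitory lineages of the dorsal cord and several of the ventral cord, whereas V2a neurons use glutamate and load it with Slc17a6.

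The inhibitory nuclei were spread very unevenly over the libraries. They numbered 15 of 542 neuron nuclei in uninjured library 1, a share of 2.77% (95% Clopper-Pearson interval 1.56 to 4.52). In uninjured library 2 they numbered 255 of 1293, or 19.7% (17.6 to 22.0). In the injured libraries they numbered 9 of 511, or 1.76% (0.808 to 3.32), and 6 of 379, or 1.58% (0.583 to 3.41). Uninjured library 2 was far above the other 3 libraries, whose intervals overlapped one another. The mean share was 11.2% ± 11.99 (SD, n = 2) in the uninjured and 1.67% ± 0.126 (SD, n = 2) in the injured libraries. The uninjured library values were both above the injured ones, with a difference of 9.57 percentage points. Without uninjured library 2 the difference was 1.10 points. The rule used these values, so the shares are a description of the libraries, with no test.

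Uninjured library 2 stood apart in other ways. Of its 782 nuclei over the gene minimum that were not neuronal, 645 stored at least 4 of 10 oligodendrocyte genes, and 60.1% of its stored entries had a count of 0 against 53.0% to 55.6% in the other libraries. Lmx1b, a factor of dorsal excitatory neurons, was stored in 16.9% of its neuron nuclei with no inhibitory gene stored, against 0.593% to 1.09% in the other 3 libraries. The 4 libraries held between 2901680 and 13496025 total counts. A pair of cell barcodes each occurred in 2 libraries, and 1 of these was borne by an inhibitory nucleus.

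**Figure D1:**
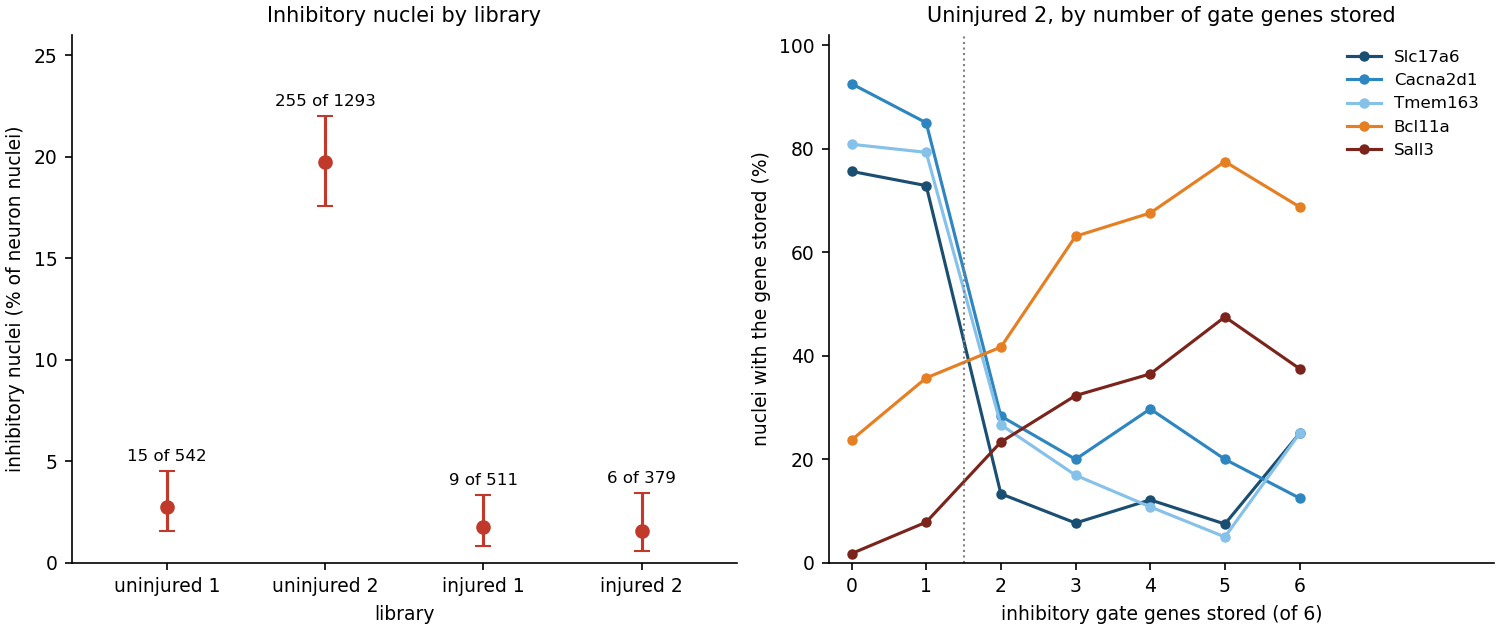
Left, share of inhibitory nuclei among neuron nuclei in each library (percent, points) with 95% Clopper-Pearson intervals (bars) and the numbers of nuclei; uninjured 2 lies at 19.7% and the others between 1.58% and 2.77%. Right, percent of neuron nuclei of uninjured 2 with each of 5 genes stored (lines), by the number of inhibitory gate genes stored; the dotted line is the threshold of the rule, across which Slc17a6, Cacna2d1 and Tmem163 drop from 72.9% or more to 28.3% or less.

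The threshold of 2 genes fell at a step in genes the rule did not use. Among neuron nuclei of uninjured library 2, 898 stored none of the 6 inhibitory genes, 140 stored exactly 1, and 60, 65, 74, 40 and 16 stored 2, 3, 4, 5 and 6. Slc17a6, the vesicular glutamate carrier, was stored in 72.9% of the nuclei with 1 inhibitory gene and in 13.3% of those with 2. The calcium channel subunit gene Cacna2d1 was stored in 119 of the former 140 and 17 of the latter 60. The transcription factor gene Sall3 went the other way, with 11 of 140 and 14 of 60, and Bcl11a less so, with 50 of 140 and 25 of 60. In the plot by number of gate genes, most of the drop in the excitatory genes lies between 1 and 2 genes stored.

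The label of inhibitory neurons held for uninjured library 2 and less well for the few nuclei of the other libraries. Slc17a6 was stored in 29 of the 255 members of uninjured library 2, or 11.4%. It was stored in 15 of the 30 members of the other 3 libraries, among them 11 of the 16 with exactly 2 inhibitory genes and 4 of the 14 with 3 or more. Cacna2d1 was stored in 24 of these 30 and the V2a factor gene Lhx4 in 13. The 30 nuclei outside uninjured library 2 therefore carried these excitatory genes at least as often as Lhx1 (12 of 30), a factor of inhibitory neurons. The descriptions below are of the 255 nuclei of uninjured library 2, compared with 781 excitatory nuclei of the same library that passed the same neuron rule, stored Slc17a6 and stored at most 1 inhibitory gene. With 1 library there is no test across libraries, and intervals cover counting error only.

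The 6 genes of the rule are given as a description. Slc6a5 was stored in 78.0% of the members (interval 72.5 to 83.0), Pax2 in 73.3% (67.5 to 78.7), Gad2 in 61.2% (54.9 to 67.2), Gad1 in 59.2% (52.9 to 65.3), Pax8 in 48.6% (42.3 to 54.9) and Slc32a1 in 35.3% (29.4 to 41.5). Excitatory nuclei, weighted to the members' distribution of stored genes per nucleus, had these genes stored in 0.388% (Pax8) to 6.34% (Slc6a5), within the limit of 1 that the rule sets. In summed counts, Slc6a5 had 290, Pax2 213, Gad1 124, Gad2 107 and Pax8 104 in the members, and only Gad2, with 6, had any in the excitatory nuclei. Slc32a1 had 0 counts in both, although 90 members stored it.

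The combinations of glycine and GABA genes are also a description, since the rule asks for at least 2 of the 6 genes and so favours nuclei that store several. Slc6a5 was stored together with Gad1 or Gad2 in 156 members, or 61.2% (54.9 to 67.2). Slc6a5 without either Gad gene was found in 43, or 16.9%, and a Gad gene without Slc6a5 in 52, or 20.4%. The remaining 4 had neither. The 52 nuclei with a Gad gene alone had a median of 5787.5 counts and the 43 with Slc6a5 alone 9515, so depth moves with the combination, and its part in these shares was not tested. Pax2 or Pax8 was stored in 208 members, or 81.6% (76.3 to 86.1).

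Noncoding RNAs annotated on the opposite strand, beside or across gate genes, were stored mostly in members. Among all tested genes, 4 that passed the call described below lie within 10 kb of a gate gene (chosen after their values were seen, as the naming rule leaves out predicted genes). Gm14204, a noncoding RNA at chr2:158595472-158610723 (GRCm38), ends 44 bases from the GENCODE start of Slc32a1 and runs away from it. It was stored in 60.4% of members against 0.525% of depth-weighted excitatory nuclei, with 120 counts against 0. It was found in 68.9% of the 90 members with Slc32a1 stored and in 55.8% of the 165 without it, compared with 1.73% of the 1038 neuron nuclei outside the members. The RNA beside Slc32a1 was present in most members whether or not Slc32a1 itself had been stored.

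The region around the 2 starts is shown because both RNAs leave it in opposite directions. It is the plus strand of chr2:158610508-158610757 in RefSeq's GRCm38 table, 250 bases that end just before the RefSeq start of Slc32a1. Capitals mark the 34 bases between the annotated end of Gm14204, where its outermost transcript begins, and the Slc32a1 start.
Slc32a1: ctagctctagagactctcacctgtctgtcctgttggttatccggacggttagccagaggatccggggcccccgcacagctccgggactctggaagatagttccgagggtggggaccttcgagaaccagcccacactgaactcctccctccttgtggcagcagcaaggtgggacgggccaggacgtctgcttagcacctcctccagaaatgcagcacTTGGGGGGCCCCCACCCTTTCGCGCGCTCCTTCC

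The other 3 start inside their gate gene on the opposite strand. Gm13415, opposite Pax8, was stored in 36.9% of members against 0.617% of excitatory nuclei. Gm20395, opposite Pax2, was stored in 25.1% against 0.110%. Gad1os, opposite Gad1, was stored in 21.6% against 0.863%. The use of strand in counting is not given in the sources used here, so reads of these RNAs and of the gate genes they overlap cannot be told apart, and none of the 4 is independent of the rule in the way a distant gene is.

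Outside the rule, most tested genes differed little in stored share between members and excitatory nuclei. Differences were read in 2 ways: the share of nuclei with a gene stored, called at 20 percentage points, and summed counts scaled to the same total in each class (CPM), called at 2-fold. In stored share, 45 of 14118 tested genes were higher in members (0.319%) and 44 lower (0.312%). In counts, 551 of 9549 were higher (5.77%) and 586 lower (6.14%). Both rules were passed by 41 higher and 31 lower genes. The median difference in stored share was 0.18 points, the median log2 ratio of counts was -0.02, and 82.7% of tested genes differed by less than 5 points. The minimum of 5% in either class admits genes stored too seldom to differ by 20 points, which keeps these differences small. The 45 higher genes lay in 42 places at least 10 kb apart, so a few of them are neighbours.

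**Figure D2:**
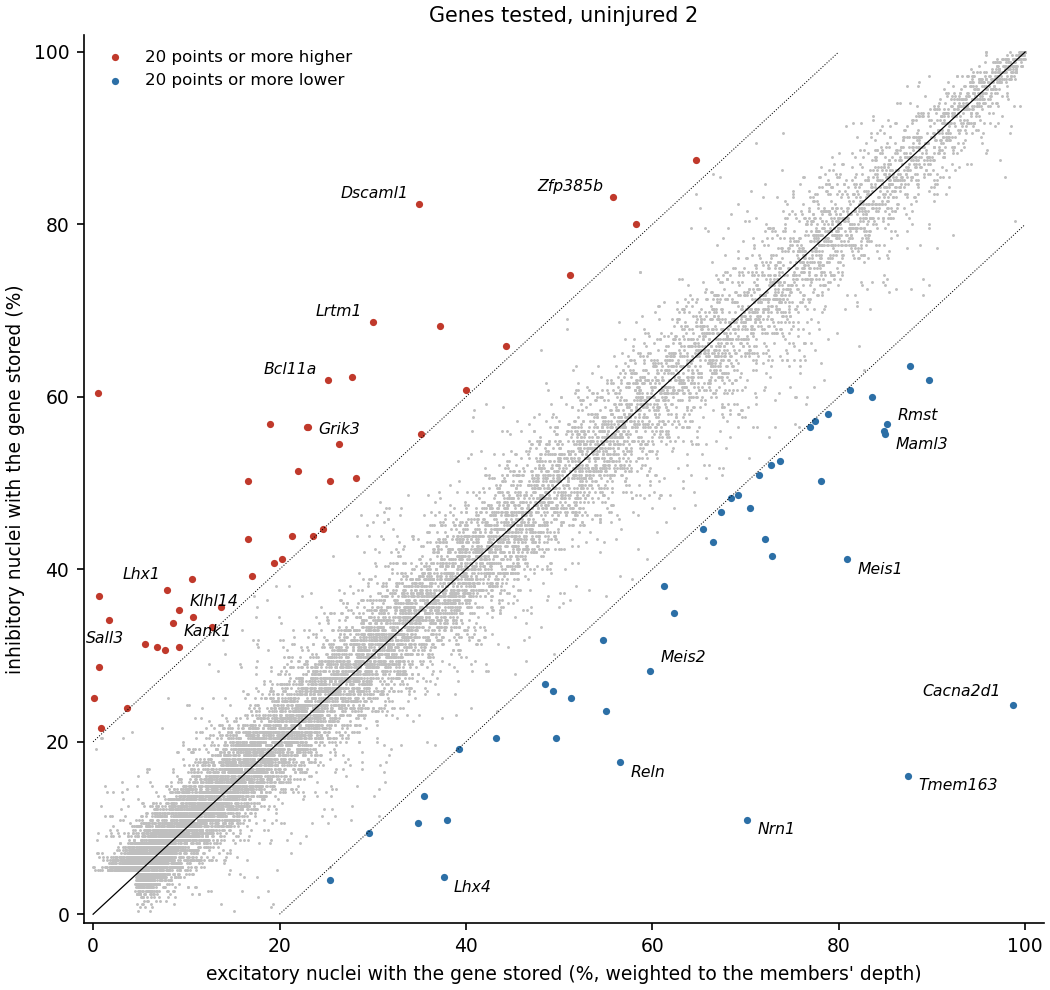
Percent of inhibitory nuclei (vertical) against depth-weighted percent of excitatory nuclei (horizontal) with a gene stored, 1 point per tested gene of uninjured library 2; the solid line is equality and the dotted lines are 20 points away. The 45 red genes are higher and the 44 blue genes lower in inhibitory nuclei, and Cacna2d1 and Tmem163 lie farthest below the line.

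The lower genes had the larger differences. Cacna2d1, an auxiliary calcium channel subunit and the target of gabapentin, was stored in 24.3% of members (19.2 to 30.1) and 98.7% of excitatory nuclei, with 61.2 against 994 CPM. Tmem163, a zinc transporter of vesicles, was stored in 16.1% (11.8 to 21.2) and 87.4%, with 25.3 against 411 CPM. Nrn1, a membrane-anchored neurite growth protein, was stored in 11.0% and 70.2%, with 2 against 171 counts. Each of these 3 was present in a majority of excitatory nuclei and a minority of inhibitory ones. Reln, which encodes the secreted protein reelin, was stored in 17.6% of members and 56.5% of excitatory nuclei, at 11.1-fold lower CPM. The homeodomain genes Meis1 and Meis2 were stored in 41.2% and 28.2% of members, against 80.9% and 59.8%. Nell2, which encodes a secreted axon guidance ligand, was stored in 43.5% and 72.1%, and the Notch coactivator gene Maml3 in 55.7% and 84.98%. The noncoding RNA Rmst was stored in 56.9% and 85.2%, Ano5 in 23.5% and 55.0%, and Vwc2l in 41.6% and 72.8%. Cacna2d1 also marks the comparison itself: in the other 3 libraries it was stored in 93.7% to 99.1% of excitatory nuclei.

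Among the higher genes, Dscaml1, a cell adhesion gene of the Down syndrome cell adhesion family, had the widest gap in stored share of the genes the naming rule admits. It was stored in 82.4% of members (77.1 to 86.8) and 35.0% of excitatory nuclei, with 363 against 85.9 CPM. It was also stored in 93.0% of the 645 nuclei with oligodendrocyte genes, and in uninjured library 1 in 40.0% of members against 38.5% of excitatory nuclei. Lrtm1 was stored in 68.6% against 29.99%. It lies inside Cacna2d3 on the opposite strand, and Cacna2d3 itself had 2047 against 273 CPM. Zfp385b, a zinc finger gene, was stored in 83.1% against 55.8%, and Eepd1 in 43.5% against 16.7%. Mgll, which encodes the lipase that breaks down the endocannabinoid arachidonoylglycerol, was stored in 51.4% against 22.0%, at 3.08-fold higher CPM. Kank1, a cytoskeletal adaptor gene, was stored in 33.7% against 8.57%, with 72 counts against 5.

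The excitatory nuclei were themselves a mixture, since 457 of the 781 stored at least 1 of 8 V2a lineage factors and 324 stored none. Each set was therefore compared with the members separately, a choice made after seeing the data. All 12 named higher genes kept a difference of 20 points against both sets, and 10 of the 12 named lower genes did. Cacna2d1 differed by -74.4 points against the nuclei with a V2a factor and -74.1 against those without. Tmem163 differed by -72.1 and -69.1, and Bcl11a by 42.5 and 26.6. The exceptions were Lhx4, which defines the split, and Meis2, at -44.6 and -18.9. These counts are of the widest differences alone, and over all calls fewer were shared. Against the nuclei with a V2a factor, 40 of the 45 higher and 38 of the 44 lower calls in stored share were made again, as were 456 of the 551 higher and 409 of the 586 lower calls in counts. Against the nuclei without one, the numbers were 35 and 22 in stored share and 248 and 311 in counts, so many calls in counts depended on which excitatory nuclei were compared. Reading only entries with a count of at least 1, 8 of the 12 higher and 10 of the 12 lower genes still differed by 20 points, with Nrn1 (-6.57), Ano5 (-19.2), Lhx1 (5.47), Lhx1os (6.29), Mgll (11.2) and Kank1 (13.9) short of it.

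RNA of oligodendrocytes was slightly more often stored in members. All 10 oligodendrocyte genes had a higher stored share in members, by 0.313 to 5.38 points, with a summed share of 222 against 189 percent, and 9 of the 10 had 0 counts in both classes. The exception was St18, with 37 counts against 0. Of 4 astrocyte genes tested in counts, 3 were over 2-fold higher in members, where 5.77% of all tested genes were. Among the 3 is a gene also listed under inhibitory transmitter handling below, with 11 counts against 12. The part of oligodendrocyte and astrocyte RNA in the higher genes was not tested. Bcl11a, Sall3, Lhx1 and Grik3 were stored in 1.24%, 0.775%, 0.155% and 2.33% of the oligodendrocyte nuclei, and Dscaml1 in 93.0%.

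Most transmitter genes outside the rule did not reach the call in stored share. Of 7 genes of inhibitory transmitter handling, 1 was called higher and none lower, against 0.319% and 0.312% of all tested genes. Their median difference was 3.83 points. In counts 3 of 6 were higher and none lower, against 5.77% and 6.14% of all tested genes, with a median log2 ratio of 1.26. Some of these calls rested on few counts, 6 in members against 4 and 11 against 12. Abat, which breaks GABA down, was stored in 83.5% of members (78.4 to 87.9) against 77.7%, just below the interval. Slc12a2, the chloride importer, had 55.3% against 58.4%. Slc1a1, a glutamate transporter gene, was stored in 62.4% against 67.1% and was not called. Slc17a6 chose the comparison nuclei, and with 0 counts in members and 8 in all 781 excitatory nuclei nearly all of its entries were listed at 0.

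Factors of the V2a lineage were nearly missing from the members. All 5 tested genes of this list were lower in counts, 1 of them also in stored share. Of all tested genes, 6.14% were lower in counts and 0.312% in stored share. Each of the 5 passed the 5% minimum through the excitatory nuclei alone, which favours a lower call. Lhx4, a LIM homeodomain partner in this lineage, was stored in 4.31% of members against 37.6% of excitatory nuclei, with 14 counts against 356. Any of the 8 factors was stored in 14 members, or 5.49%, and in 457 excitatory nuclei, or 58.5%. Sun1, which names both the mouse gene and the inserted nuclear tag, was stored in 56.9% of members (50.5 to 63.0) and 60.0% of depth-weighted excitatory nuclei, a difference within the members' interval.

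Most tested inhibitory lineage factors of the dorsal cord were higher in counts. Of 15 listed, 7 were tested in counts, and 6 of these were over 2-fold higher and none lower. Of all tested genes, 5.77% were higher. Most of the 6, Sall3 among them, passed the 5% minimum through the members alone. That favours a higher call, so the count is a description only. In stored share 2 of 8 were called higher, against 0.319% of all tested genes, with a median difference of 17.06 points. The other 7 were not tested in stored share, and 5 of the 15 had 0 counts in both classes. Sall3, a zinc finger factor, was stored in 34.1% of members (28.3 to 40.3) against 1.68%, with 118 counts against 0, at least 132-fold higher against a floor of 3 counts over the excitatory class. Lhx1, a LIM homeodomain factor that acts with Pax2 in this lineage, was stored in 37.6% against 7.95%, with 31 counts against 15 from 781 nuclei. Its neighbour Lhx1os was stored in 38.8% against 10.6%. Rorb, a nuclear receptor of dorsal inhibitory interneurons, was stored in 30.6% against 20.8%, short of the 20 points, while its CPM was 4.31-fold higher. Sall3, Lhx1 and Rorb lie on chromosomes 18, 11 and 19, so the 3 do not overlap.

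Lists of other lineages showed less. Of 14 ventral inhibitory factors only 3 were tested in stored share and none was called, and the only member of the list found in at least 25% of either class was Foxp1, at 85.9% against 86.6%. Of 6 dorsal excitatory factors, 3 were lower in counts, where 6.14% of all tested genes were. All of the 3 but Ebf2 passed the 5% minimum through the excitatory nuclei alone, which favours a lower call. Ebf1 was lower in stored share, at 60.0% against 83.6%, where 0.312% of all tested genes were lower. Ebf2 was stored in 15.3% against 31.4%, and Ebf3 in 51.4% against 52.1%. The low Ebf2 depended on which excitatory nuclei were compared, with a log2 ratio of counts of 3.41 against those with a V2a factor and -3.89 against those without. Ebf1 turned in the same way, at 2.58 and -2.08.

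Genes that sort spinal neurons by the length of their projections included calls in both directions. Among 14 such factors, Bcl11a was called higher and Meis2 lower in stored share, where 0.319% and 0.312% of all tested genes were. In counts 2 were higher and 6 lower of 13, against 5.77% and 6.14% of all tested genes. Of the 2 higher, 1 passed the 5% minimum through the members alone, with 8 counts against 3, which favours a higher call. Of the 6 lower, 1 passed it through the excitatory nuclei alone, which favours a lower call. Bcl11a, a zinc finger factor of dorsal horn neurons, was stored in 62.0% of members (55.7 to 68.0) against 25.2%, at 7.01-fold higher CPM. Zfhx3, associated with long-range neurons, was stored in 56.5% against 75.7%, at 3.57-fold lower CPM. Nfib, associated with local neurons, was stored in 43.9% against 28.4%, while its CPM was 101 against 93.3. Hox genes, which mark position along the cord, were not called in stored share in any of 15 tested, with a median difference of 4.90 points. The widest was Hoxb6, at 57.6% against 40.8%.

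**Figure D3:**
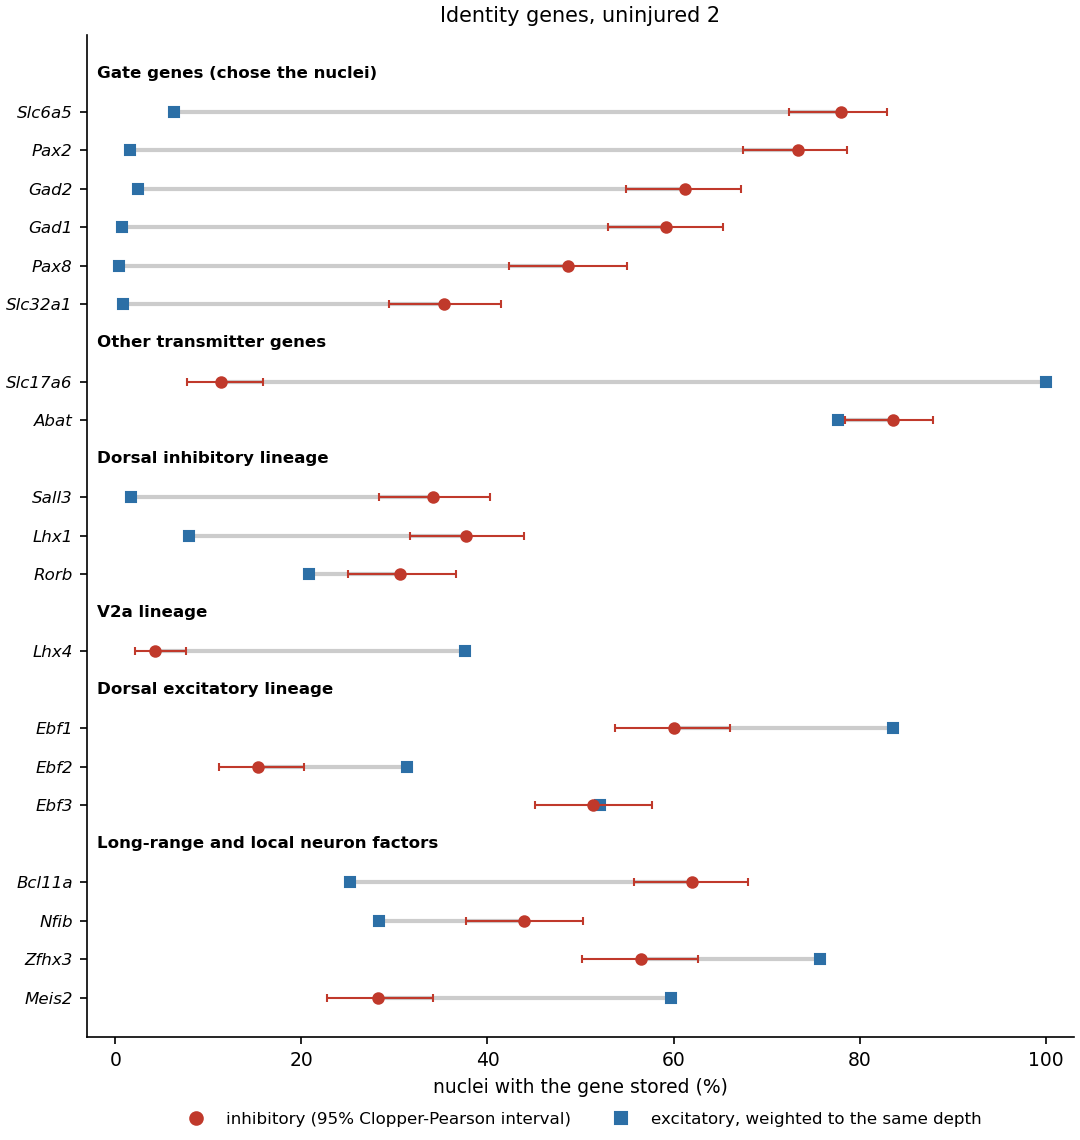
Percent of nuclei of uninjured library 2 with each identity gene stored (horizontal), for 255 inhibitory nuclei (red circles, bars are 95% Clopper-Pearson intervals) and 781 excitatory nuclei weighted to the same depth (blue squares). The 6 gate genes and Slc17a6 chose the nuclei; of the rest, Bcl11a, Sall3 and Lhx1 are higher and Lhx4, Ebf1 and Meis2 lower by over 20 points.

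Subtype markers and peptides added few differences. Of 15 tested subtype markers, Klhl14 was called higher and Reln lower in stored share, where 0.319% and 0.312% of all tested genes were. Klhl14, a marker of a dorsal inhibitory group, was stored in 35.3% of members against 9.26% of excitatory nuclei and had 0 counts in both, so this difference rests on entries emptied in the deposited matrix. No neuropeptide gene reached 25% of either class, and none of the 10 tested was called in stored share. In counts 3 of 3 tested peptide genes were lower, each with 0 counts in members, where 6.14% of all tested genes were lower. Each of the 3 passed the 5% minimum through the excitatory nuclei alone, so its direction was fixed in advance. Of the 19 listed, 11 had 0 counts in both classes and could not be tested in counts. Among the 10 tested in stored share, 3 had a positive and 7 a negative difference.

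No receptor gene for GABA or glycine was called in stored share, a call that 0.319% of all tested genes passed upward and 0.312% downward, so few calls are the background for any list. None of 11 tested GABA-A subunit genes was called in counts either, where 5.77% of all tested genes were higher and 6.14% lower, and their median difference in stored share was -3.22 points. Gabra5 had the widest gap, at 48.6% of members against 61.9%, followed by Gabrb2 at 60.4% against 71.1%. Among glycine receptor genes, Glra1 was stored in 92.2% against 87.9%. Glra2 was stored in 32.2% against 40.3% and was 2.16-fold lower in CPM, past the fold though not past the share, and the fold was not reached against excitatory nuclei without a V2a factor (log2 ratio -0.62).

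Among receptors for glutamate, 1 kainate receptor gene was called higher in stored share, where 0.319% of all tested genes were. Grik3, a kainate receptor subunit, was stored in 56.5% of members (50.1 to 62.6) against 23.1%, at 3.44-fold higher CPM. The other 6 kainate genes differed by -0.52 to 8.69 points. Gria1, an AMPA receptor subunit, was stored in 88.6% against 82.3% but at 2.69-fold higher CPM, 716 against 267. This was 2.26 on the log2 scale against excitatory nuclei with a V2a factor and 0.40 against those without. Grm3, a metabotropic receptor, was likewise 2.54-fold higher in CPM, and it was stored in 91.2% of oligodendrocyte nuclei. Grid1 was stored in 85.5% against 97.8%, and Grin3a in 70.2% against 83.4%. None of 5 NMDA subunit genes was called in stored share.

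Receptors for modulators and growth factors gave no call in stored share, which 0.319% of all tested genes passed upward and 0.312% downward. They gave 7 calls in counts, which 5.77% of all tested genes passed upward and 6.14% downward. None of 8 serotonin receptor genes was called in either readout, and their median difference was 0.30 points. Htr2c was stored in 80.4% of members against 75.7%, and Htr4 in 58.0% against 69.4%. The muscarinic receptor gene Chrm2 was stored in 75.7% against 66.4%, and the adrenergic receptor gene Adra1a in 35.7% against 40.2%. Oprm1, the receptor for morphine and enkephalins, came closest to the call, at 65.5% (59.3 to 71.3) against 48.0%, with 163 against 106 CPM. Nmur2, a neuromedin U receptor, was stored in 32.2% against 46.7%, and Tacr1, the substance P receptor, in 17.3% against 27.5%, at 2.09-fold lower CPM. In counts the dopamine receptor gene Drd2 was 2.53-fold higher and the cannabinoid receptor gene Cnr1 2.34-fold lower. Among 15 peptide receptor genes tested in counts, 1 was higher and 3 were lower, against 5.77% and 6.14% of all tested genes. The neurotensin receptor gene Ntsr1 had 13 counts in members against 1, the neuropeptide Y receptor gene Npy1r 0 against 23, and the orexin receptor gene Hcrtr1 3 against 29. Gfra2, a coreceptor for neurturin, was stored in 31.4% against 17.6% and passed the 2-fold call in counts, 33.3 against 12.2 CPM, but not against excitatory nuclei without a V2a factor (log2 ratio 0.57).

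**Figure D4:**
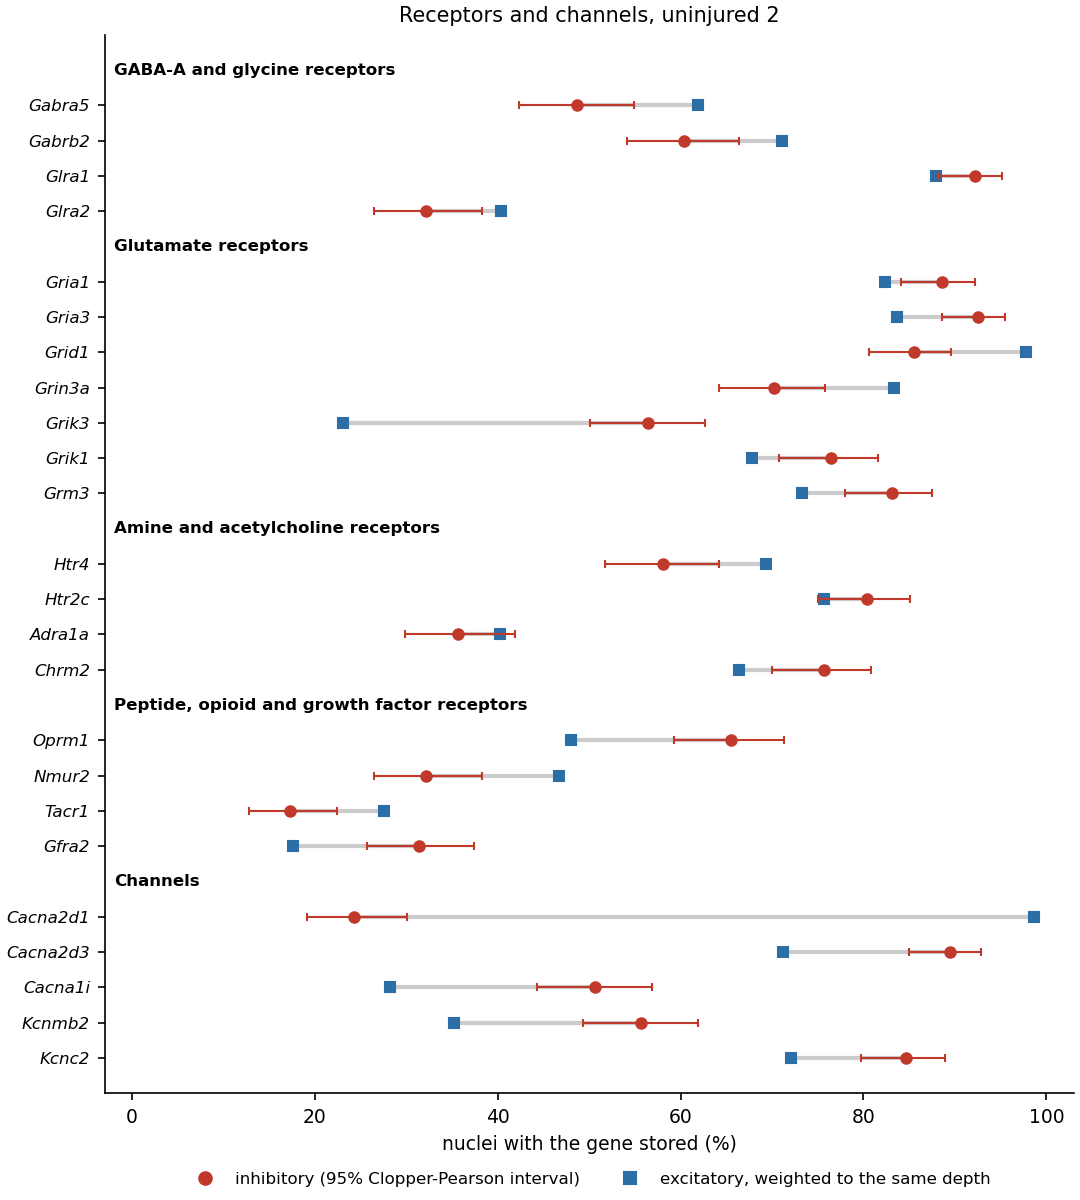
Percent of nuclei of uninjured library 2 with each receptor or channel gene stored (horizontal), for 255 inhibitory nuclei (red circles, bars are 95% Clopper-Pearson intervals) and 781 excitatory nuclei weighted to the same depth (blue squares). Most pairs lie close together; Grik3, Cacna1i and Kcnmb2 are higher and Cacna2d1 lower in inhibitory nuclei by over 20 points.

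Channel genes held the widest difference of the tested genes, with a relative that differed the other way. Against the low Cacna2d1, its relative Cacna2d3 was stored in 89.4% of members against 71.2%, at 7.49-fold higher CPM. Cacna1i, a low-threshold calcium channel, was stored in 50.6% against 28.2%, and Kcnmb2, a subunit of large-conductance potassium channels, in 55.7% against 35.2%. Kcnc2, a channel of fast-spiking neurons, was stored in 84.7% against 72.1%, at 831 against 415 CPM, just past 2-fold, and at a log2 ratio of 0.18 against excitatory nuclei without a V2a factor. Of 29 potassium and pacemaker channel genes, 1 was called higher in stored share and none lower, against 0.319% and 0.312% of all tested genes. Their median difference was 1.75 points. In counts 4 of 27 were higher and 1 lower, against 5.77% and 6.14% of all tested genes. The higher ones were Kcnmb2, Kcnc2, Kcnh8 and Kcnip2, the last at 5.54-fold higher CPM, and the lower one was Kcnn3, a small-conductance channel gene, at 2.29-fold lower CPM. Of 19 tested synaptic adhesion genes none was called in stored share, but Nrxn3, a presynaptic neurexin stored in every member, had 12293 against 3891 CPM.

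The members were not uniform. Within the 255 nuclei, 325 pairs of 26 identity genes outside the rule were described by the phi coefficient, a correlation of presence across nuclei that share 1 library and differ in depth. The strongest negative pair was Lhx1 with Nfib, at phi = -0.41, with Nfib stored in 17 of 96 nuclei with Lhx1 and in 95 of 159 without. The strongest positive pair was Nfib with Nfix, at 0.40, with Nfix in 38.4% of nuclei with Nfib and 6.29% of the rest. Zfhx3, Meis2 and Onecut2 were stored together (phi 0.30 to 0.32), as were Sall3 and Kcnip2 (0.32). Sall3 was less often stored with Zfhx3 (-0.25) and with Meis2 (-0.21).

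**Figure D5:**
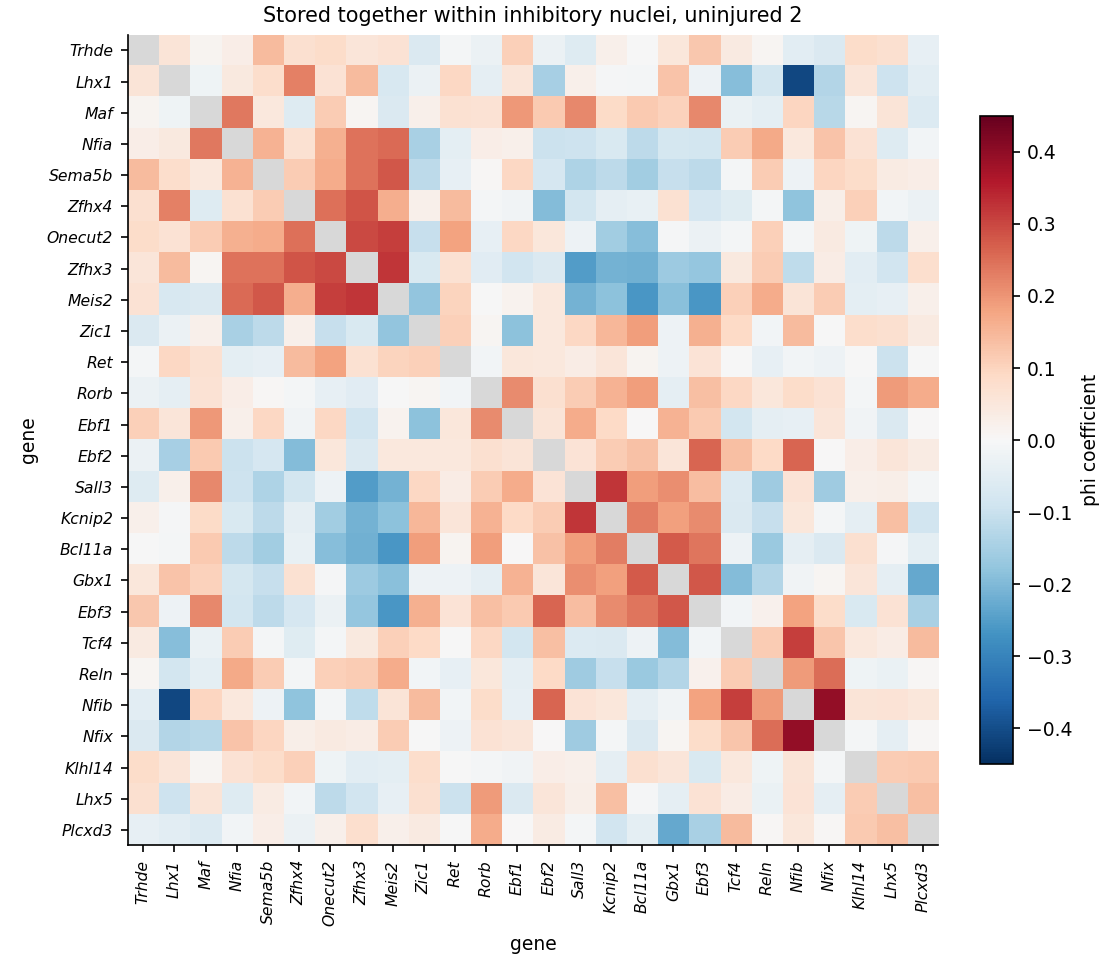
Phi coefficient (colour) between each pair of 26 identity genes, rows and columns in the same clustered order, across the 255 inhibitory nuclei of uninjured library 2; grey marks the diagonal. The Zfhx3, Meis2 and Onecut2 block and the Nfib and Nfix pair are red, and Lhx1 with Nfib is the darkest blue at -0.41.

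The widest differences between such subsets included receptors and channels. The genes given here are among the widest differences of each split in these same nuclei, so they are a description of extremes, with no test. Nuclei with Nfib stored the muscarinic receptor gene Chrm2 less often, in 58.9% against 88.8% of nuclei without Nfib, and the orexin receptor gene Hcrtr2 more often, in 45.5% against 21.0%. Prox1 was stored in 27.7% of them against 2.10%, with 0 counts in all members. Oligodendrocyte nuclei stored Nfib in 65.7%, Nfix in 54.3% and Prox1 in 55.7%, and the part of their RNA in the Nfib nuclei was not tested. Nuclei with Sall3 stored the potassium channel gene Kcnh8 in 50.6% against 22.6% and Grik3 in 37.9% against 66.1%. Grik3 was therefore lower in the Sall3 nuclei although both genes were higher in members than in excitatory nuclei. Nuclei with Rorb stored Cacna2d1 in 47.4% against 14.1%, Grik3 in 75.6% against 48.0% and Cacna1i in 66.7% against 43.5%. Weighting the nuclei without each gene to the depth of those with it moved none of these 8 values by more than 3 points. Nuclei with Zfhx3 stored Adra1a in 51.4% against 15.3%, but they were deeper, with a median of 5325 against 4253 stored genes, and the depth-weighted share without Zfhx3 was also 15.3%.

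A small group stored Gata2, Gata3 or Tal1, factors of the V2b inhibitory neurons that arise beside V2a neurons. It held 12 members, or 4.71% (2.45 to 8.08), against 3 excitatory nuclei (0.384%). Gata2, Gata3 and Tal1 each had 0 counts in both classes, so the group rests on entries emptied in the deposited matrix. None of the 12 stored Pax2 or Pax8, so each passed the rule on the other 4 genes, with Slc6a5 in 10 and Gad1 or Gad2 in 8. Meis2 was stored in 12 of 12 and Zfhx3 in 11, against 28.2% and 56.5% of all members, while Bcl11a and Sall3 were stored in 2 each. These 12 nuclei had a median of 11026 counts, above the 7811 of all members. Whether these nuclei were V2b neurons was not tested.

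The genes called in uninjured library 2 were looked up in the members of the other libraries, too few for any fit. Of the 45 higher genes, 4 lie within 10 kb of a gate gene, and the gate chose the members of every library. The direction of those 4 is not independent of the rule. In uninjured library 1, with 15 members, 40 of the 45 higher genes had a higher unweighted share than in that library's excitatory nuclei and 37 of the 44 lower genes a lower one, where 53.7% and 45.7% of all tested genes lay in those directions. In injured library 1, with 9 members, the numbers were 31 and 25, against 50.3% and 49.5%. In injured library 2, with 6 members, they were 30 and 25, against 59.5% and 40.2%. For the lower genes the median difference was -2.81 and -2.15 points in the injured libraries and -10.7 in uninjured library 1. Among the 3 members of injured library 1 with 3 or more inhibitory genes, only 17 of the 44 lower genes were lower, and the median difference was 6.57 points in the other direction. Injury and the identity of these few nuclei cannot be told apart, and no effect of injury on inhibitory nuclei was assessed.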

How the data were processed

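The deposited matrices gave whole-number counts of RNA molecules for each gene in each nucleus. Per the submitters' processing notes, the authors made these counts with Cell Ranger and Seurat 5.0.0 on mm10, with no version stated for Cell Ranger. The matrices are named for SoupX, a tool that removes counts ascribed to free RNA, and no source used here gives its settings. Entries listed with a count of 0 were taken as detections that this step had emptied, which no label or header states. They made up 53.0% to 60.1% of stored entries, and stored shares therefore include RNA free in the suspension.

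The members, lists and tests were chosen with earlier results of these data known. Nuclei were selected by the rule given above, and excitatory nuclei were required to store Slc17a6 and at most 1 inhibitory gene. Stored shares of excitatory nuclei were weighted to the members over 5 bins of stored genes per nucleus, with 51 members and 126 to 189 excitatory nuclei in each. The 12 rule genes and Slc17a6 were left out of the calls. A gene was tested in counts at 10 counts over both classes, and in stored share at 5% of either class. Ratios add 0.5 counts to each class, and a fold against a class at 0 uses a floor of 3 counts over that class. The exact permutation test planned for library shares (scipy 1.17.1) is not given, because the rule used those shares. No model was fitted, because the other 3 libraries held fewer than 20 members each. The planned edgeR fit was not run. Named genes were the gate and check genes, up to 4 per list stored in at least 25% of either class (others of that level may be named), and the 12 widest differences in each direction that passed both calls, without predicted genes. Some genes that enter the counts are not reported here by name. Positions are from GENCODE M21 (GRCm38).

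Doublets were called with Scrublet per library in scanpy 1.11.5 for an alternative only, and it marked 21 of 3594 nuclei, 1 of them a member. The labels do not say that libraries come from separate animals, so the spread between libraries may be technical. Per nucleus, members of uninjured library 2 had a median of 7811 counts and excitatory nuclei 8518, with 2368866 and 7943539 counts in all, and intervals cover counting error only. Alternatives were another gate, gene minimum, scaling, threshold, comparison class, doublet removal and leaving out each library.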

Additional observations from a re-analysis of the deposited data

How the results depend on the processing

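The share difference between uninjured and injured libraries was positive in every setting run, from 2.98 points when a count of at least 1 replaced a stored entry to 9.80 points at 1000 genes per nucleus, and from 1.10 to 18.0 points when 1 library was left out. As a paired difference with a replicate block it was again 9.57 points, which is the same mean by arithmetic and so checks nothing. The pairs differed by 1.01 points for replicate 1 and 18.1 points for replicate 2, with no test. The numbers of the labels name no shared animal or day. Without a minimum on a gene, 2810 genes were higher and 1798 lower in counts, and at 3-fold 238 and 269. At 30 points, 12 genes were higher and 9 lower in stored share, and 27 were higher when only counts of at least 1 were read. Against excitatory nuclei with a V2a factor, 893 genes were higher in counts and 80 lower in stored share. Among the 115 genes followed singly, log2 ratios of called genes changed sign for Ebf2 (3.41) and Nlgn2 (1.24) against that class. Against excitatory nuclei without a V2a factor, which store no Lhx4 by construction, Lhx4 was at 4.86 and its stored difference at 4.31 points. These 2 classes were added after seeing the data, and the cause of the other changes was not tested. All other counts of called genes stayed within 1.5 times, which does not say that they hold the same genes: against excitatory nuclei without a V2a factor, 468 were higher and 770 lower in counts, of which 248 and 311 were among the 551 and 586, and of 38 lower in stored share 22 were among the 44. Scrublet marked 0.584% of nuclei, so the doublet setting tests little. Members of the 3 smaller libraries, 6 to 15 each, limit every comparison between libraries.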
